A study of Mus musculus with 8 samples.

Results

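The genes described here encode the enzymes that remove superoxide and peroxides and that make, recycle and use glutathione, measured by RNA sequencing of whole ovaries from superovulated mice. Members were taken by name: protein-coding genes whose symbol begins with Gsta, Gstm, Gstp, Gstt, Gsto, Gstk, Mgst, Gpx or Prdx followed by a digit, and the 15 single genes Cat, Sod1, Sod2, Sod3, Gclc, Gclm, Gss, Gsr, Txn1, Txn2, Txnrd1, Txnrd2, Nqo1, Hmox1 and Srxn1. This gave 54 genes among the 41591 gene IDs in the count tables. The rule itself uses names only, but it was set with earlier results of these data known.

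The study set 4 libraries from mice with conditional loss of both Insr and Igf1r (DKO), which encode the receptors for insulin and for insulin-like growth factor 1, against 4 libraries from littermates that were wild type at these genes and carried Pgr-Cre (Control). All were C57BL/6 females of about 3 weeks. Each received 4 IU of eCG, which drives follicle growth, then 5 IU of hCG, which triggers ovulation, 48 h later, and ovaries were taken 12 h after hCG. Cre expressed from the progesterone receptor gene Pgr acts in cells that have switched that gene on, which in the ovary are mainly granulosa cells after the ovulatory signal, so whole ovaries also hold cells that Cre does not reach. The labels name this driver for Control mice, and the DKO mice were their littermates. In such bulk RNA, fewer cells of a type and less RNA per cell cannot be told apart. The labels do not say that each library came from a separate animal, so p-values measure the spread between these libraries.

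Reactive oxygen is handled in a chain of steps. Superoxide dismutases turn superoxide into hydrogen peroxide, which catalase, the glutathione peroxidases and the peroxiredoxins break down. Glutathione peroxidases draw on glutathione, whose synthesis begins with glutamate-cysteine ligase, while most peroxiredoxins draw on thioredoxin, and both cycles are refilled with electrons from NADPH. Glutathione transferases attach glutathione to electrophiles, and many genes of the whole system can be induced by the transcription factor NRF2. In the ovary, follicle rupture and the steroid synthesis of luteinising cells are known sources of reactive oxygen.

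Total counts were 33145056 to 39257648 in DKO libraries and 34785650 to 37592984 in Control libraries. Insr averaged 126 ± 16.8 CPM (counts scaled to library size) in DKO libraries and 155 ± 10.3 CPM in Control libraries, and Igf1r averaged 214 ± 22.4 CPM in DKO libraries and 236 ± 28.6 CPM in Control libraries (SD, n = 4 each). Both sets overlapped, and the adjusted p of edgeR's quasi-likelihood test was 0.226 for Insr and 0.639 for Igf1r. Gene-level exon counts do not show whether a floxed exon is missing, so they do not check the labels. Markers of oviduct epithelium summed to 792 CPM in DKO 2 and 6.78 to 8.94 CPM in the other DKO libraries, and to 1235 CPM in Control 1 and 7.34 to 33.2 CPM in the other Control libraries. Those oviduct-rich libraries are 1 of each group. Results for Gclc, Sod3, Slc7a11, Cat, Mgst2 and Aco1 are given with and without both, and values of other single genes are not. The 12 listed markers of luteal and other steroid-making cells summed to 19648 to 25444 CPM in DKO libraries and 10841 to 18894 CPM in Control libraries, without overlap. Of these markers, 10 had a log2 fold change above 0, and Oxtr, Ptgfr, Mgarp and Hsd3b1 were called higher in DKO ovaries. Markers of granulosa cells of growing follicles summed to 3046 to 3849 CPM in DKO libraries and 2649 to 3581 CPM in Control libraries. Among the other cell type lists, summed levels overlapped between the groups except for markers of liver or kidney, at 36.4 to 51.7 CPM in DKO libraries and 64.1 to 83.2 CPM in Control libraries, where Apoa1 was called lower, and of the fat cell markers Plin1 was called higher. Overlapping sums can hide single markers. All 7 tested neutrophil markers had log2 fold changes below 0, 5 of them with an unadjusted p under 0.05, while their sum was largest in the oviduct-rich libraries through Ltf, at 29.1 CPM in DKO 2 and 78.9 CPM in Control 1. Of 10 endothelial markers, 9 were above 0, 4 of them with an unadjusted p under 0.05. No listed marker was at 0 in every library.

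Of the 54 genes, 44 had enough counts to be tested, and most of them kept levels that could not be separated between DKO and Control ovaries. At an adjusted p under 0.05, 1 member was called higher in DKO ovaries, the extracellular superoxide dismutase Sod3, and 1 was called lower, the catalytic subunit gene of glutamate-cysteine ligase Gclc. Over all 16870 genes tested, 0.759% were called higher and 0.498% lower, and with 44 members tested, 1 call in each direction is close to that background. The members split evenly around 0, with 21 above and 23 below. The share above 0 was 47.7%, beside 46.9% of all genes tested, and the median log2 fold change was -0.05 for the members and -0.02 for all genes. All 4 DKO libraries lay above all 4 Control libraries for 4 members, Cat, Mgst2, Prdx3 and Sod3, where 5.7% of all genes tested did so. All 4 DKO libraries lay below for Gclc alone, where 3.54% of all genes did so. With no adjustment, 7 members had a p under 0.05 with a higher level and 3 with a lower one, while 15.4% of all genes tested had such a p in either direction.

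**Figure D1:**
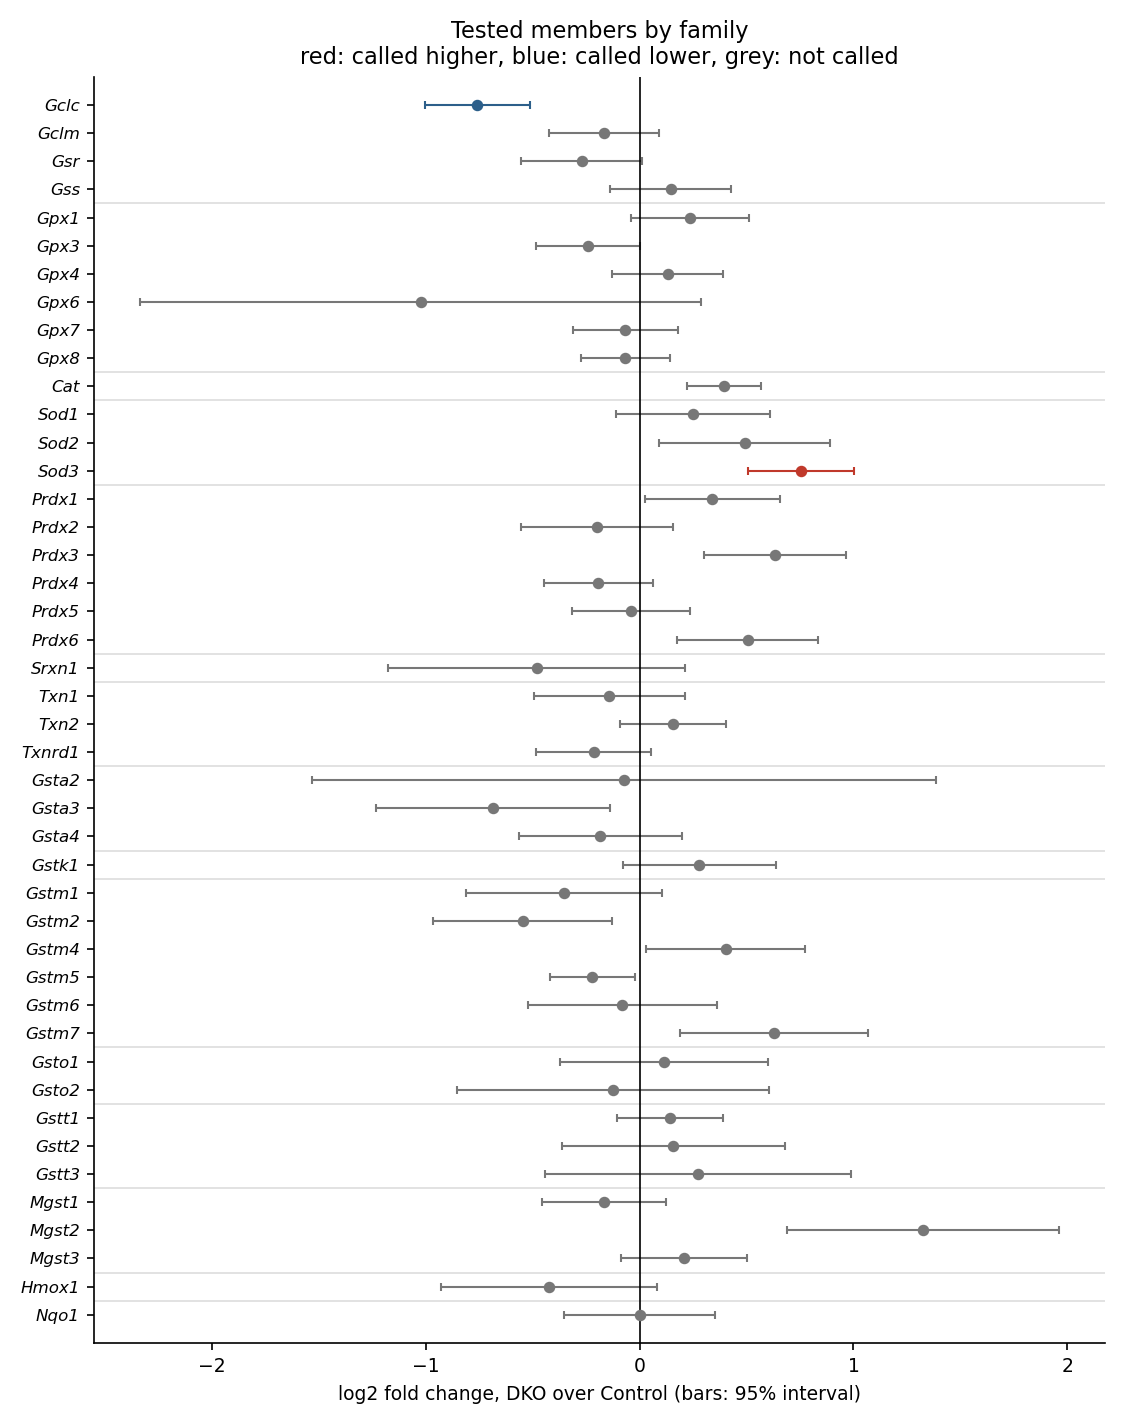
Log2 fold change of DKO over Control for each of the 44 tested members, arranged by family, with bars of the 95% interval from edgeR's quasi-likelihood fit (n = 4 libraries a group). Sod3 (red) at 0.75 and Gclc (blue) at -0.76 are the called genes, and the grey points of the other members scatter on both sides of 0 with Mgst2 farthest to the right at 1.32 and Gpx6 farthest to the left at -1.02.

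Compared per kilobase of exon, the members spanned a wide range of levels, similar in both genotypes. Sod1, the cytosolic copper-zinc superoxide dismutase, had the most RNA per length, with 810 ± 144 CPM per kb in DKO libraries and 681 ± 162 in Control libraries (SD, n = 4 each). Prdx1, a cytosolic peroxiredoxin, came next with 532 ± 48.0 CPM per kb in DKO libraries and 420 ± 97.6 in Control libraries. The following members in the Control order were Mgst1, Gpx3 and Prdx2, at 327, 310 and 319 CPM per kb in DKO libraries and 367, 366 and 366 in Control libraries. The levels of those 3 genes differed from each other by less than their SD of 24.4 to 106 CPM per kb. At the low end, Nqo1, Gstt3, Gsto2 and Gpx6 stayed under 4 CPM per kb in every library.

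**Figure D2:**
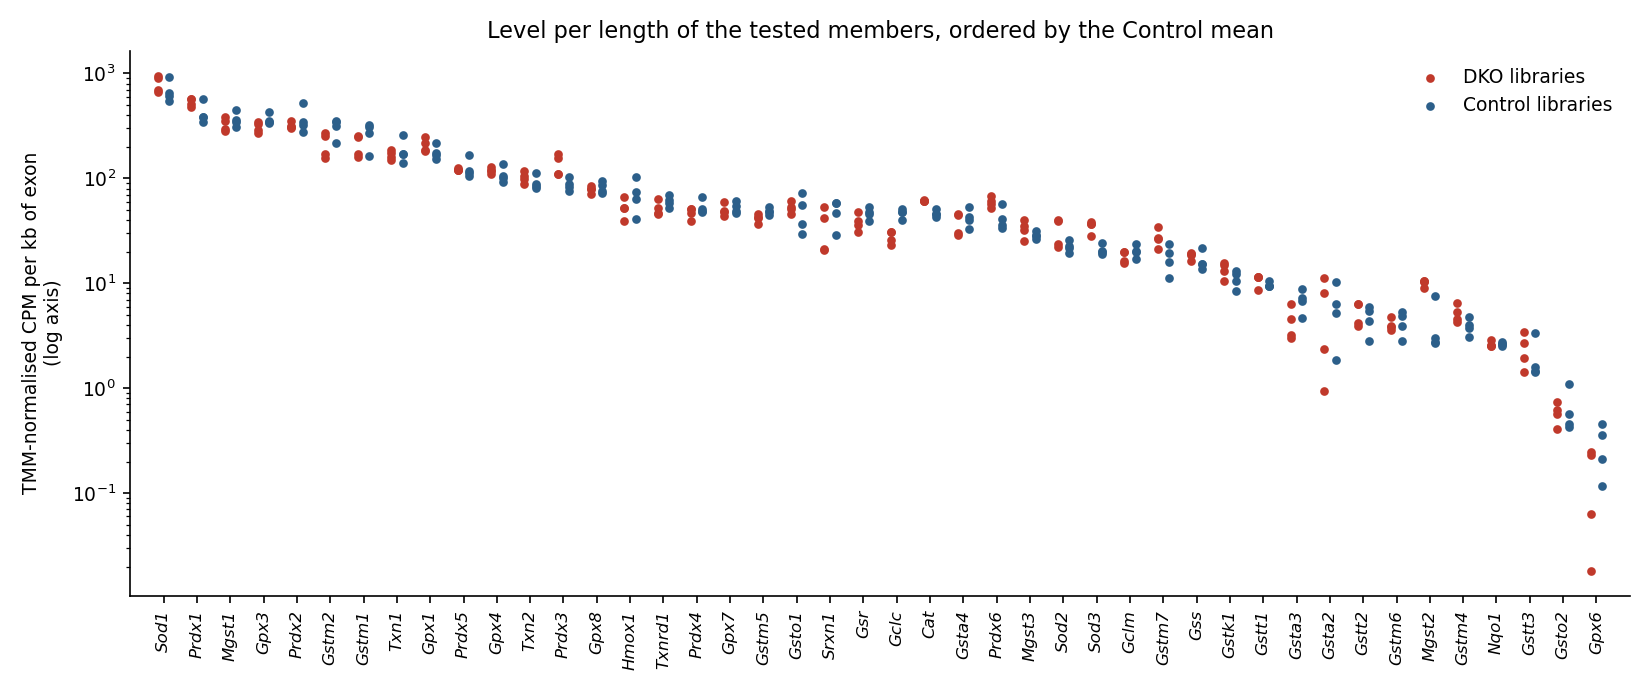
Level per length of each tested member in each library, as TMM-normalised CPM per kilobase of exon on a log axis, with DKO libraries in red and left of Control libraries in blue. Members run from Sod1, at 810 CPM per kb in DKO libraries and 681 in Control libraries on average, down to Gpx6, and the point clouds of both groups overlap for most of them.

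Glutathione synthesis carried the call in the lower direction. Gclc (chr9:77754518-77794489, plus strand, GRCm38.p5) encodes the catalytic subunit of glutamate-cysteine ligase, the rate-limiting enzyme of glutathione synthesis. It had 85.5, 95.5, 116 and 114 CPM in DKO libraries 1 to 4, against 150.2, 190.2, 176 and 179 CPM in Control libraries 1 to 4. The highest DKO library lay below the lowest Control library. The log2 fold change was -0.76 ± 0.13 (SE), with an adjusted p of 0.0288 in edgeR's quasi-likelihood test. The call did not survive every change of libraries. Without Control 1 and DKO 2, which hold the oviduct markers, the log2 fold change was -0.77 with an adjusted p of 0.0572 from the same test, so the call ended. With single libraries left out it was -0.68 to -0.81 and called in 3 of 8 fits, ending without Control 2, Control 4, DKO 1, DKO 2 or DKO 3, with a highest adjusted p of 0.131 without Control 2.

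The partner genes of Gclc did not pass the test. Gclm (chr3:122245557-122267215, plus strand) encodes the modifier subunit, which makes the ligase more active. It had 32.3, 34.2, 41.3 and 41.6 CPM in DKO libraries, against 35.3, 40.8, 42.4 and 48.9 CPM in Control libraries, and the groups overlapped. Its log2 fold change was -0.17 with a 95% interval of -0.42 to 0.09 and an adjusted p of 0.612 in edgeR's quasi-likelihood test. The ratio of Gclc to Gclm per length was 1.47, 1.55, 1.56 and 1.52 in DKO libraries, a mean of 1.53 ± 0.040, against 2.36, 2.59, 2.31 and 2.03 in Control libraries, a mean of 2.32 ± 0.230 (SD, n = 4 each). The ratio was thus closely alike among the DKO libraries, and each of them lay below each Control library. Gss, which adds glycine in the last step of glutathione synthesis, averaged 36.9 ± 2.73 CPM in DKO libraries and 33.3 ± 6.99 CPM in Control libraries. Gsr, which returns oxidised glutathione to its reduced form, averaged 103 ± 19.0 CPM in DKO libraries and 125 ± 15.9 CPM in Control libraries. Neither was called, with adjusted p of 0.696 for Gss and 0.418 for Gsr in the same test.

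The supply of cystine showed a wider gap that also did not pass. Slc7a11, the cystine importer of system xc- that feeds glutathione synthesis, had 5.74, 17.9, 44.8 and 66.5 CPM in DKO libraries, against 111, 164, 159 and 209 CPM in Control libraries. Every DKO library lay below every Control library, and the DKO libraries themselves spread widely. The log2 fold change was -2.25 ± 0.65, with an adjusted p of 0.15 in edgeR's quasi-likelihood test. Slc7a11 was called in 4 of 20 other fits and in 0 of the 8 that left out a single library. Without Control 1 and DKO 2, which hold the oviduct markers, the log2 fold change was -2.17 with an adjusted p of 0.28 in the same test. Among DKO 3, DKO 4 and Control 2 to 4, whose title numbers are the highest, it was -1.65 with an adjusted p of 0.0236. That fit leaves out DKO 1 and DKO 2, the lowest DKO libraries. This gene was singled out after its values were seen. Slc3a2, its heavy-chain partner in the transporter, averaged 397 CPM in DKO libraries and 543 CPM in Control libraries, with a log2 fold change of -0.45 ± 0.16 and an adjusted p of 0.207 in the same test.

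**Figure D3:**
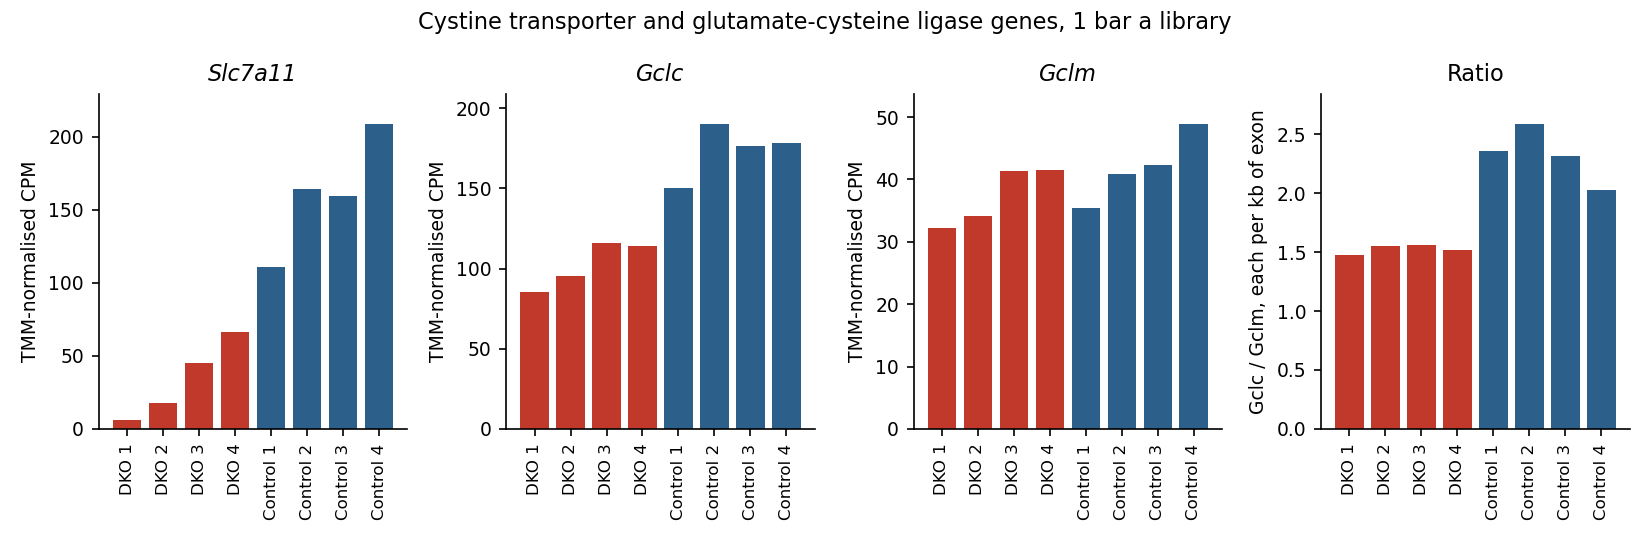
TMM-normalised CPM of the cystine importer gene Slc7a11 and the glutamate-cysteine ligase genes Gclc and Gclm in each library, and the ratio of Gclc to Gclm per kilobase of exon, with DKO bars in red and Control bars in blue. DKO libraries lie below all Control libraries for Slc7a11, Gclc and the ratio, which averages 1.53 in DKO libraries and 2.32 in Control libraries, while Gclm overlaps.

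Promoter sequence from RefSeq on GRCm38.p6 was available for 46 of the 54 genes as 59 windows, each running from 250 bases before an annotated start to 50 after it. NRF2 binds the antioxidant response element, searched here on both strands as the core letters TGACNNNGC and TGAGNNNGC. The letters of either can also contain a binding site of AP-1 factors. Either core was present in 15 of the 59 windows (25.4%), beside 27.8% of 32851 windows of the same length over all genes. The core with C alone was in 9 member windows (15.3%), beside 12.4% of all windows. These shares are close to the background of windows, and a match is only a string of letters. The FOXO core TGTTTAC was in 0 of the 59 member windows and in 3.65% of all windows, and the NR5A core AAGGTCA was in 3.39% of member windows, those of Gpx2 and Gstk1, and in 4.72% of all windows. Windows that hold a core are shown for Gclm, the partner of Gclc, and for Srxn1 and Txnrd1, enzymes of the peroxiredoxin and thioredoxin cycle. Any windows of these genes without a core are not shown. In each of those genes DKO 3 and DKO 4 lay above DKO 1 and DKO 2. Cat is shown too, which held none of the cores searched and did not share that order. The order was seen in 27 of the 44 tested members. Every tested member with an antioxidant response element core in a window was among them, Gstt1 only narrowly. Members whose windows held no such core went both ways. Sod2, Gstm2, Gsta2 and Prdx3 shared the order, and Cat, Mgst2 and Gsto2 had the opposite one. Whether the cores bear on the order was not tested. The Txnrd1 window belongs to an annotated start inside the gene, which spans chr10:82833951-82897724. The windows shown lie at chr3:122245307-122245606 (plus strand) for Gclm, chr2:152105274-152105573 (plus strand) for Srxn1, chr10:82858956-82859255 (plus strand) for Txnrd1 and chr2:103485104-103485403 (minus strand) for Cat. Each is written 5′ to 3′ in lower case on the strand of its gene, and capitals mark the antioxidant response element cores on either strand.
Gclm: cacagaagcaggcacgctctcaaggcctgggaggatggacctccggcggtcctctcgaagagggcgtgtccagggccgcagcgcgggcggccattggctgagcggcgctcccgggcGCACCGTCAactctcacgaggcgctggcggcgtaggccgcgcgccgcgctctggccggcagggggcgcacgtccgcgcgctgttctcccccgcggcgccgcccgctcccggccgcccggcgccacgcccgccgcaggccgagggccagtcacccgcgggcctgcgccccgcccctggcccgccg
Srxn1: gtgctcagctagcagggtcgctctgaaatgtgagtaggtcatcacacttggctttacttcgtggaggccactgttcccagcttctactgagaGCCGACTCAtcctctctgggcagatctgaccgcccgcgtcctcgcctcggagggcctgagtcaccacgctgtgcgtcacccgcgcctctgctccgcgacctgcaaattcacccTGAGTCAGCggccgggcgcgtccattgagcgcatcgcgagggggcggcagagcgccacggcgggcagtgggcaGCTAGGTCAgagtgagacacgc
Txnrd1: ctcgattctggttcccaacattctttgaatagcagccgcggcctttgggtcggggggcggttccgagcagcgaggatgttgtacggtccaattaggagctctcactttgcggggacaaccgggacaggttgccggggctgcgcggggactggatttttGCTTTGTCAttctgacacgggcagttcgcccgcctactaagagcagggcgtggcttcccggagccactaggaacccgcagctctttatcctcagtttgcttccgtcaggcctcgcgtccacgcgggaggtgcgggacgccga
Cat: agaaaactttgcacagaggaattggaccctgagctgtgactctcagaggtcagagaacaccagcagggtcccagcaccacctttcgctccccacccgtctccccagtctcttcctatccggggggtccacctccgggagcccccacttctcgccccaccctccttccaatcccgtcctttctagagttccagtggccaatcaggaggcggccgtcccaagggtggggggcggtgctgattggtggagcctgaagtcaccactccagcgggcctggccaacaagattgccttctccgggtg
Counted from the annotated start, the core in Gclm began at -134, that in Txnrd1 at -92, and those in Srxn1 at -158, -45 and 29.

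Superoxide dismutases carried the call in the higher direction. Sod3 (chr5:52363804-52369738, plus strand, GRCm38.p5) encodes the secreted enzyme that acts in the extracellular space. It had 75.9, 57.2, 75.0 and 79.0 CPM in DKO libraries 1 to 4, against 38.9, 41.7, 40.4 and 49.3 CPM in Control libraries 1 to 4. The lowest DKO library, DKO 2, lay above the highest Control library. The log2 fold change was 0.75 ± 0.13 (SE), with an adjusted p of 0.0291 in edgeR's quasi-likelihood test. Without the libraries that hold oviduct markers it was 0.82 with an adjusted p of 0.0364 in the same test, so the call held. With single libraries left out it was 0.70 to 0.86 and called in 3 of 8 fits, ending without Control 2, Control 4, DKO 1, DKO 3 or DKO 4, with a highest adjusted p of 0.132 without Control 2.

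The other superoxide dismutases did not pass. Sod2, the mitochondrial manganese enzyme, had 89.9, 85.7, 153 and 151 CPM in DKO libraries, against 74.1, 82.5, 98.2 and 86.5 CPM in Control libraries. DKO 3 and DKO 4 stood above every Control library, and DKO 1 and DKO 2 lay within the Control range. Its log2 fold change of 0.49 ± 0.20 had an adjusted p of 0.28 in edgeR's quasi-likelihood test. Sod1 had 435 to 619 CPM in DKO libraries and 353 to 593 CPM in Control libraries, with a log2 fold change of 0.25 and a 95% interval of -0.11 to 0.61. The luteal markers given above separated the groups as Sod3 did, and smooth muscle markers summed to 1707 to 2808 CPM in DKO libraries and 2157 to 4000 CPM in Control libraries, with all 8 below 0. Their part in the results for Sod3 and Gclc was not tested.

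**Figure D4:**
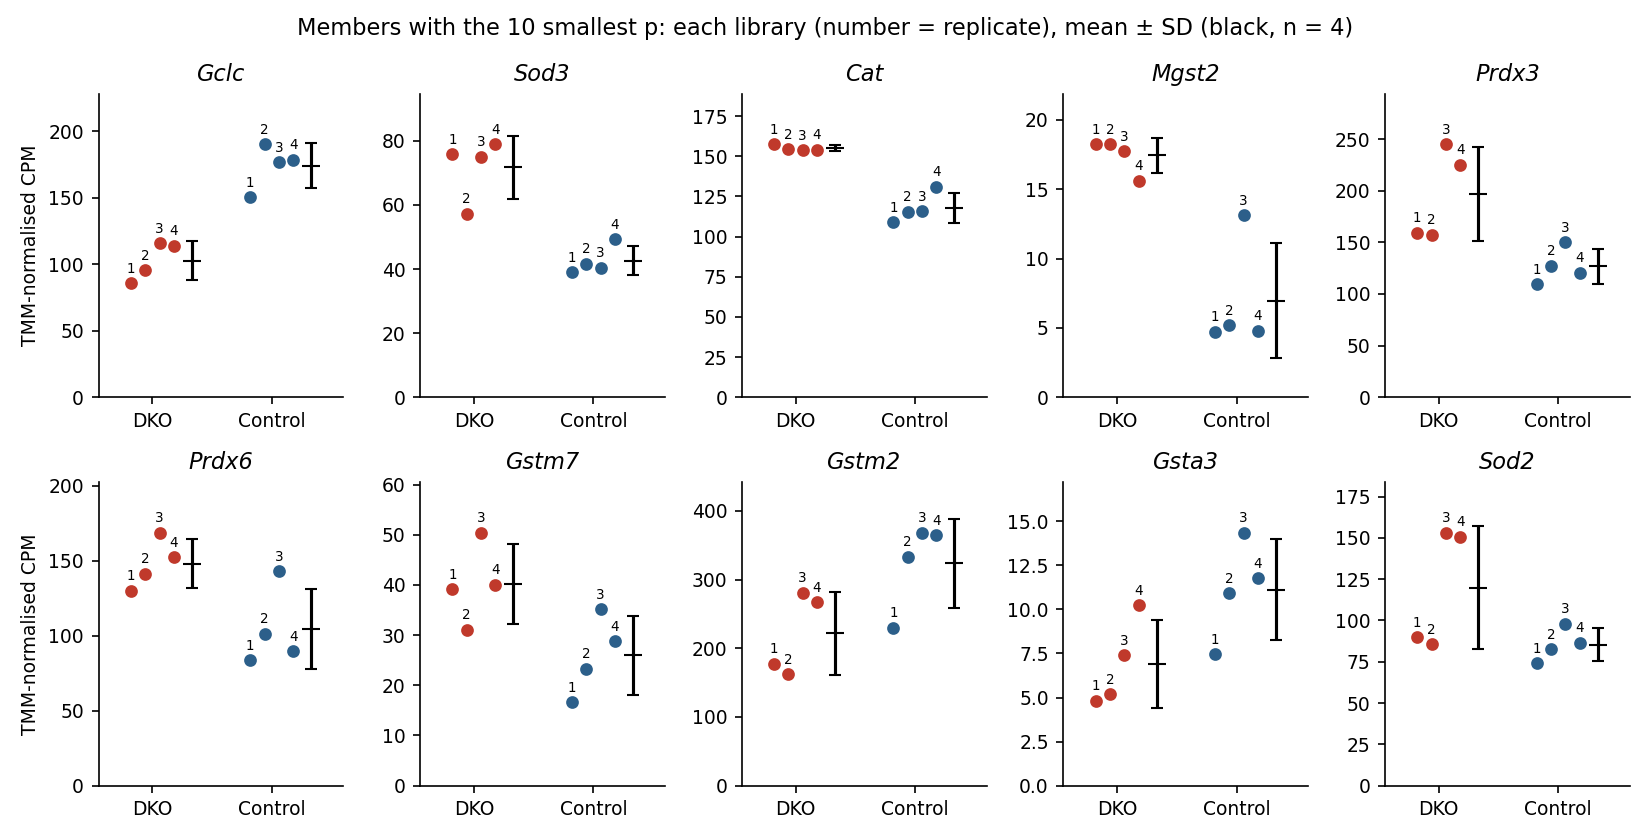
TMM-normalised CPM in each library (points, numbered by replicate) with the mean and SD (black, n = 4) for the 10 members with the smallest p, DKO in red left of Control in blue. Gclc, with 85.5 to 116 CPM in DKO libraries and 150.2 to 190.2 CPM in Control libraries, and Sod3, with 57.2 to 79.0 CPM in DKO libraries and 38.9 to 49.3 CPM in Control libraries, do not overlap, nor do Cat, Mgst2 and Prdx3, which missed the adjusted threshold.

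Among the enzymes that break down hydrogen peroxide, catalase was the steadiest. Cat (chr2:103453904-103485153, minus strand), which encodes the peroxisomal enzyme that splits peroxide into water and oxygen, had 158, 154, 154 and 154 CPM in DKO libraries, against 109, 116, 116 and 131 CPM in Control libraries. The DKO values lay within an SD of 1.71 CPM and all above the Control values, whose SD was 9.40 CPM. The log2 fold change of 0.40 ± 0.088 missed the threshold, with an adjusted p of 0.0655 in edgeR's quasi-likelihood test. It passed in 6 of 20 other fits, among them DESeq2 with an adjusted p of 0.000373, and was 0.37 to 0.45 in all 20. It passed in 0 of the 8 fits that left out a single library. Without Control 1 and DKO 2, which hold the oviduct markers, the adjusted p in edgeR's test was 0.185. Among the 5 libraries with the highest title numbers it was 0.287 in that test.

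Glutathione peroxidases did not separate. Gpx3, the secreted plasma form and the most abundant of them per length, averaged 470.0 ± 51.2 CPM in DKO libraries and 556 ± 64.3 CPM in Control libraries, a log2 fold change of -0.24 ± 0.12 with an adjusted p of 0.394 in edgeR's quasi-likelihood test. Gpx1, the common cytosolic form, averaged 218 ± 31.5 CPM in DKO libraries and 185 ± 28.0 CPM in Control libraries. Gpx4, which reduces lipid hydroperoxides in membranes, averaged 182 ± 11.3 CPM in DKO libraries and 166 ± 31.3 CPM in Control libraries. Their log2 fold changes were 0.24 and 0.13, with adjusted p of 0.472 and 0.704 in the same test. Gpx4 shares 34.7% of its 50-base stretches with other genes, so reads from them can match more than 1 gene and its count is less certain. Gpx7 and Gpx8, peroxidases of the endoplasmic reticulum, had the same log2 fold change of -0.07. Gpx6, a form best known from olfactory tissue, had the lowest fold change of all members at -1.02 ± 0.67, but on 0.0294 to 0.396 CPM in DKO libraries and 0.188 to 0.742 CPM in Control libraries.

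Peroxiredoxins were of unlike sign. Prdx3, the peroxiredoxin of mitochondria, had 159, 157, 245 and 225 CPM in DKO libraries, against 109, 127, 150 and 121 CPM in Control libraries. All DKO libraries lay above all Control libraries, with DKO 3 and DKO 4 highest. Prdx3 was called in 5 of 20 other fits and in 0 of the 8 that left out a single library. Its log2 fold change was 0.63 ± 0.17 and its adjusted p 0.109 in edgeR's quasi-likelihood test. Prdx6, which uses glutathione rather than thioredoxin as its reductant, had 130, 141, 169 and 152 CPM in DKO libraries, against 83.6, 101, 143 and 89.7 CPM in Control libraries. Control 3 alone reached into the DKO range, and the log2 fold change was 0.50 ± 0.17 with an adjusted p of 0.179 in that test. Prdx1 averaged 754 ± 68.1 CPM in DKO libraries and 596 ± 138 CPM in Control libraries. Prdx2, the other abundant cytosolic form, averaged 495 ± 38.0 CPM in DKO libraries and 569 ± 164 CPM in Control libraries. Red cells are rich in Prdx2, and erythroid markers summed to 187 to 807 CPM in DKO libraries and 267 to 589 CPM in Control libraries. The hemoglobin gene Hbb-bs made up much of that spread, with 0.609 and 1.06 CPM in DKO 1 and DKO 2 and 255 and 442 CPM in DKO 3 and DKO 4, against 105 to 323 CPM in Control libraries. Hbb-bt was likewise lowest in DKO 1 and DKO 2, at 0.178 and 0.0883 CPM. DKO 2 had the most Hba-a1 and Alas2 RNA of all libraries, at 248 and 46.8 CPM. The sum therefore does not rank the libraries as each erythroid marker does. Hba-a1, Hba-a2 and Alas2 had log2 fold changes of 0.81, 0.83 and 0.75, with adjusted p of 0.158, 0.145 and 0.184 in that test. Of the 9 tested erythroid markers, 5 were above 0 and 4 below. The part of red cells in the values of Prdx2 was not tested. Prdx4 of the endoplasmic reticulum and Prdx5, which is found in several compartments, had log2 fold changes of -0.19 and -0.04. Prdx1, Prdx2, Prdx4 and Prdx5 had adjusted p of 0.354 to 0.926 in the same test.

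The genes that recharge peroxiredoxins did not differ beyond the spread. Txn1, the cytosolic thioredoxin, averaged 176 ± 16.8 CPM in DKO libraries and 195 ± 55.6 CPM in Control libraries, and Txn2, the mitochondrial form, averaged 131 ± 15.5 CPM in DKO libraries and 118 ± 17.3 CPM in Control libraries. Txnrd1, the cytosolic thioredoxin reductase, averaged 210 ± 32.8 CPM in DKO libraries and 244 ± 30.2 CPM in Control libraries. The log2 fold changes of Txn1, Txn2 and Txnrd1 were -0.14, 0.16 and -0.22, with adjusted p of 0.773, 0.621 and 0.512 in edgeR's quasi-likelihood test. Srxn1, the sulfiredoxin that rescues overoxidised peroxiredoxins, had 58.7, 59.0, 119 and 151 CPM in DKO libraries, against 80.4, 132, 165 and 163 CPM in Control libraries. The DKO libraries fell into a low pair and a high pair, the high pair within the Control range, and the log2 fold change of -0.48 ± 0.35 had an adjusted p of 0.586 in that test.

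Glutathione transferases made up the largest share of the members, and the mu class held most of their RNA. Gstm2 and Gstm1 were its leading genes, at 212 and 208 CPM per kb in DKO libraries and 309 and 266 CPM per kb in Control libraries. Gstm2 had 178, 162, 281 and 267 CPM in DKO libraries, against 230, 333, 368 and 364 CPM in Control libraries. Only Control 1 reached into the DKO range. Gstm2 thus had a log2 fold change of -0.55 ± 0.21, with an adjusted p of 0.25 in edgeR's quasi-likelihood test. Gstm1, whose sequence is 18.9% shared with other genes, had a log2 fold change of -0.35 ± 0.23 with an adjusted p of 0.531. Gstm7 lay the other way, with 39.2, 31.1, 50.4 and 40.1 CPM in DKO libraries, against 16.7, 23.3, 35.2 and 28.8 CPM in Control libraries, and Control 3 alone lay above the lowest DKO library. Its log2 fold change was 0.63 ± 0.22 with an adjusted p of 0.206 in the same test. Gstm4, Gstm5 and Gstm6 had log2 fold changes of 0.40, -0.22 and -0.08, and none was called.

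Of the alpha class, Gsta3 had 4.82, 5.18, 7.41 and 10.2 CPM in DKO libraries, against 7.47, 10.9, 14.4 and 11.8 CPM in Control libraries. The groups overlapped through DKO 4 and Control 1, and the log2 fold change of -0.69 ± 0.28 had an adjusted p of 0.272 in edgeR's quasi-likelihood test. Gsta4, which detoxifies the lipid aldehyde 4-hydroxynonenal, was the most abundant of the class per length and had a log2 fold change of -0.18 ± 0.19. Gsta2 ran from 0.965 to 11.5 CPM in DKO libraries and from 1.88 to 10.5 CPM in Control libraries, and 49.8% of its sequence is shared with other genes, chiefly Gsta1. The kappa gene Gstk1, the omega genes Gsto1 and Gsto2 and the theta genes Gstt1, Gstt2 and Gstt3 had log2 fold changes of -0.13 to 0.28, and none was called.

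The membrane-bound transferases held the highest fold change of all members. Mgst2, which can also make leukotriene C4, had 18.3, 18.3, 17.7 and 15.6 CPM in DKO libraries, against 4.73, 5.20, 13.1 and 4.79 CPM in Control libraries. Control 3 stood apart from the other Control libraries and still lay below every DKO library. The log2 fold change was 1.32 ± 0.32, with an adjusted p of 0.0861 in edgeR's quasi-likelihood test. Mgst2 was called in 5 of 20 other fits, among them DESeq2 and limma-voom. Of the 8 fits that left out a single library, it was called in 1, that without Control 3. Without Control 1 and DKO 2, which hold the oviduct markers, its log2 fold change was 1.17 with an adjusted p of 0.195 in edgeR's test. Mgst1, the most abundant of the class, averaged 403 ± 59.0 CPM in DKO libraries and 453 ± 72.0 CPM in Control libraries, and Mgst3 averaged 21.1 ± 4.04 CPM in DKO libraries and 18.2 ± 1.34 CPM in Control libraries. The log2 fold changes of Mgst1 and Mgst3 were -0.17 and 0.21, with adjusted p of 0.655 and 0.569 in that test.

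Neither of the classical NRF2 target genes Nqo1 and Hmox1 passed the test. Nqo1, a quinone reductase, averaged 4.08 ± 0.242 CPM in DKO libraries and 4.08 ± 0.139 CPM in Control libraries, and its 95% interval ran from -0.35 to 0.35 on the log2 scale. Hmox1, the inducible heme oxygenase, had 61.8, 82.9, 81.7 and 104 CPM in DKO libraries, against 64.6, 101, 162 and 116 CPM in Control libraries. The groups overlapped, and the log2 fold change was -0.43 ± 0.26 with an adjusted p of 0.49 in edgeR's quasi-likelihood test. Macrophages, which clear heme and express Hmox1, had markers that summed to 166 to 230 CPM in DKO libraries and 197 to 262 CPM in Control libraries.

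The 10 genes that were not tested were at or near 0. Gpx2, Gpx5, Gsta1, Gstm3, Gstp1, Gstp2, Gstp3, Gstt4, Prdx6b and Txnrd2 each stayed under 0.6 CPM in every library, and 7 of them had at most 3 counts over all libraries together. For Gsta1, Gstp1 and Gstp2 the low counts are uncertain, because 90.5%, 33.7% and 54.3% of their 50-base stretches also occur in other genes. Gstp1, Gstp2, Gstp3 and Txnrd2 are also annotated on more than 1 contig, where a read can match several places.

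The libraries of a group were not alike in these genes. DKO 3 and DKO 4, whose sample titles carry later numbers, both lay above DKO 1 and DKO 2 for 27 of the 44 tested members (61.4%), beside 28.3% of all genes tested, and both lay below for 7 (15.9%), beside 29.3%. The mean of DKO 3 and DKO 4 over that of DKO 1 and DKO 2 was 5.80 for Gsta2, 2.29 for Srxn1, 1.73 for Sod2, 1.61 for Gstm2, 1.27 for Gclc and 0.987 for Cat. Among Control libraries, Control 3 was highest for 31 members (70.5%), beside 34.8% of all genes, and Control 1 was lowest for 30 (68.2%), beside 31.0%. The hemoglobin genes Hbb-bs and Hbb-bt also set DKO 1 and DKO 2 apart from DKO 3 and DKO 4. Hbb-bs had 0.609, 1.06, 255 and 442 CPM in DKO 1 to DKO 4. Hba-a1 did not split them so, at 103, 248, 171 and 153 CPM in DKO 1 to DKO 4. What sets these pairs of DKO libraries apart was not tested. What the title numbers stand for is not given in the labels. That of Control 1 lies below those of all DKO libraries, and those of the other Control libraries lie above them. Among the 5 libraries with the highest numbers, DKO 3 and DKO 4 against Control 2 to 4, Sod3 had a log2 fold change of 0.83 with an adjusted p of 0.0399, and Gclc had -0.64 with an adjusted p of 0.0748, both from edgeR's quasi-likelihood test.

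**Figure D5:**
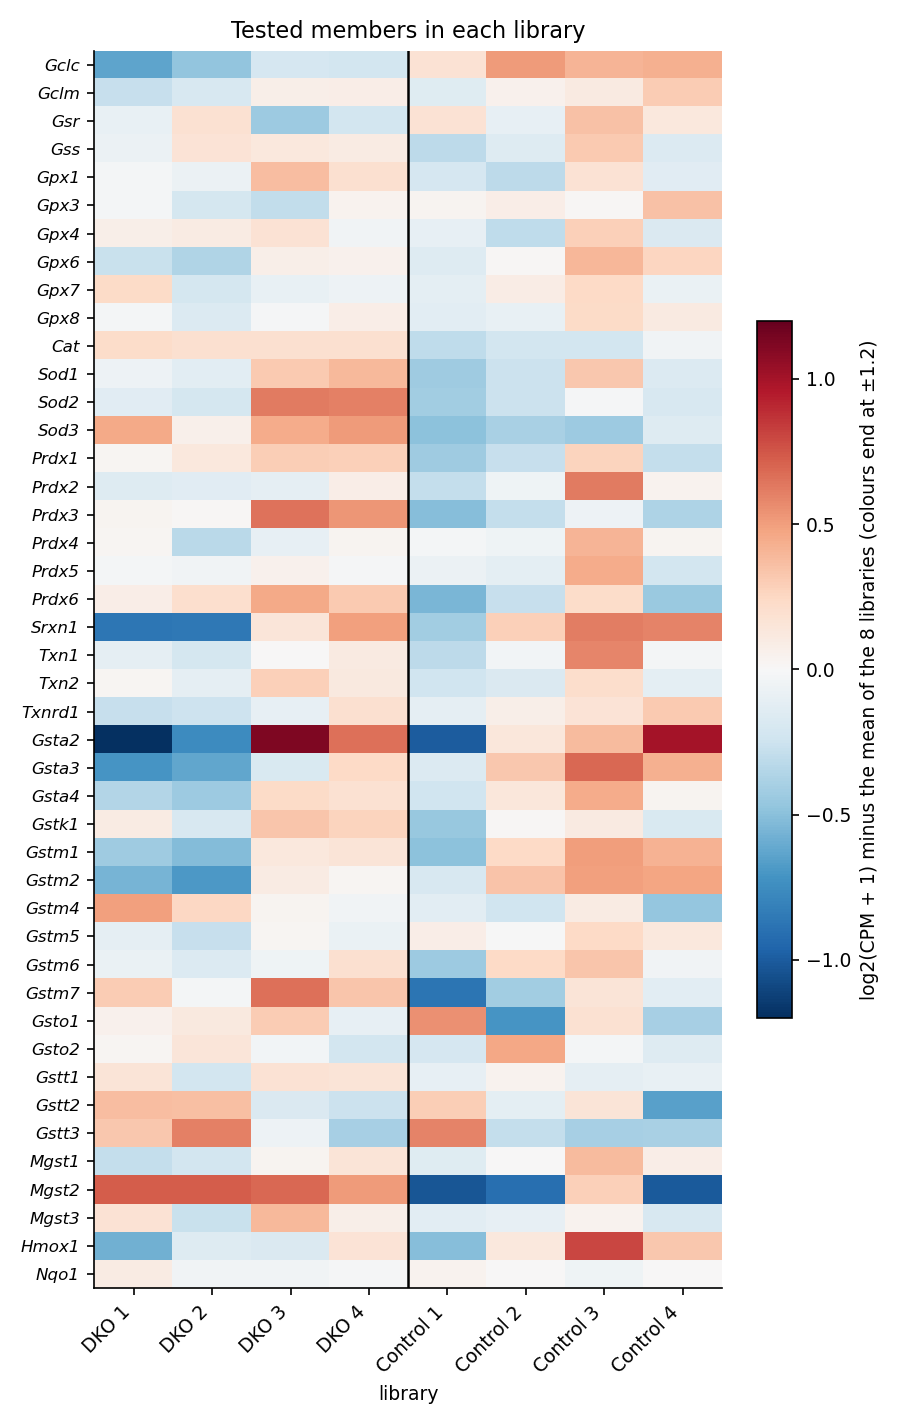
Log2 of CPM plus 1 for each tested member in each library, minus the mean of the 8 libraries, with DKO libraries left of Control libraries and colours ending at 1.2 on either side. Gclc is low in all DKO libraries and Sod3, Cat and Mgst2 are high in them, while DKO 3 and DKO 4 stand above DKO 1 and DKO 2 in 27 members and Control 3 is the highest Control library in 31.

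The wider pathway, read from lists of 149 other genes of which 143 were tested, gave a single call. Aco1, the cytosolic aconitase that doubles as an iron-regulatory protein, had 125 to 149 CPM in DKO libraries, against 83.4 to 99.0 CPM in Control libraries. The groups did not overlap, and Aco1 rose by 0.52 ± 0.097 on the log2 scale with an adjusted p of 0.0409 in edgeR's quasi-likelihood test. The call ended in 6 of the 8 fits that left out a single library, holding without Control 1 or Control 3. It also ended without both oviduct-marked libraries, at 0.55 with an adjusted p of 0.102, and among the 5 libraries with the highest title numbers, at 0.47 with an adjusted p of 0.181, both from the same test. With 0.759% of all genes called higher and 0.498% lower, 1 call among 143 related genes is near the background. In edgeR's main test and in limma-voom without quality weights no related gene was called lower, while DESeq2 called 8 higher and 5 lower. Some other fits also called related genes lower, such as Maff in edgeR with a block by replicate or by title number. With quality weights, limma-voom called Bach1 and Slc7a11 lower, among others. An unadjusted p under 0.05 was found for 18 related genes with a higher level and 13 with a lower one, where 15.4% of all genes tested had such a p. The median log2 fold change of the related genes was 0.06, with 83 above 0.

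NADPH supplies the electrons for glutathione reductase and thioredoxin reductase, and 14 of its 17 listed enzymes had log2 fold changes above 0, where 46.9% of all genes tested did. Their CPM summed to 4464 to 4936 in DKO libraries and 3138 to 3991 in Control libraries, without overlap. Idh1 and the malic enzyme gene Me1 were the most abundant of them and weigh most in that sum. Me1 averaged 1384 CPM in DKO libraries and 1062 CPM in Control libraries, and its groups overlapped. None of the 17 was called by edgeR's main quasi-likelihood test or by limma-voom without quality weights, and 3 were called higher by DESeq2. Over the 20 other fits, Aldh1l1 was called in 6, among them edgeR with a block by replicate or by title number. Idh1 was called in 3 of those fits, and limma-voom with quality weights called both. In the main test an unadjusted p under 0.05 was found for 6 of the 17, all with a higher level. Of all genes, 15.4% had such a p in either direction. The luteal markers, at 19648 to 25444 CPM in DKO libraries and 10841 to 18894 CPM in Control libraries, separated the groups in the same direction, and their part in the NADPH list was not tested. Idh1, the cytosolic isocitrate dehydrogenase, had 1608, 1678, 1342 and 1333 CPM in DKO libraries, against 652, 845, 1219 and 933 CPM in Control libraries. All DKO libraries lay above all Control libraries, and the log2 fold change was 0.71 ± 0.19 with an adjusted p of 0.103 in edgeR's test. Aldh1l1, a folate enzyme that makes NADPH, averaged 46.0 CPM in DKO libraries and 25.2 CPM in Control libraries, with a log2 fold change of 0.87 ± 0.19 and an adjusted p of 0.0642. G6pdx, the entry enzyme of the pentose phosphate pathway, averaged 117 CPM in DKO libraries and 103 CPM in Control libraries, and its adjusted p in that test was 0.368. Tkt, the pentose phosphate transketolase, had the smallest p among the 26 listed NRF2 targets, with a log2 fold change of 0.34 and an adjusted p of 0.14 in that test.

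NRF2 itself, encoded by Nfe2l2, had 174, 173, 297 and 333 CPM in DKO libraries, against 257, 290.4, 315 and 367 CPM in Control libraries, the same low and high pairs of DKO libraries as in Srxn1. Its log2 fold change was -0.33 ± 0.23 with an adjusted p of 0.543 in edgeR's quasi-likelihood test. Keap1, which marks NRF2 for degradation, averaged 78.4 CPM in DKO libraries and 72.6 CPM in Control libraries with an adjusted p of 0.628. Of the 13 listed regulators, Nfe2l2 included, 9 were below 0 and the median log2 fold change was -0.19. None was called in the main edgeR test, where 3 had an unadjusted p under 0.05 with a lower level and 1 with a higher one. DESeq2 called 1 lower, and limma-voom without quality weights called none. With quality weights limma-voom called Bach1, Bach2 and Dpp3. With a replicate block edgeR called Bach1 and Maff, and with a block by title number it called Maff. The 3 lower ones in the main test were Maff, Bach1 and Bach2. Maff, a partner of NRF2 on DNA, averaged 30.9 CPM in DKO libraries and 61.9 CPM in Control libraries. Bach1 and Bach2, the competing repressors, had log2 fold changes of -0.61 and -0.69. The higher one was Dpp3, which binds Keap1, at 0.40 with an adjusted p of 0.157 in the main edgeR test. In the remaining lists the genes with the smallest p were Xdh, the superoxide-producing xanthine dehydrogenase, at -0.64 with an adjusted p of 0.0844, Selenoi of the selenoprotein list at -0.35 and 0.139, Hagh, a glyoxalase, at 0.39 and 0.141, Msra, a methionine sulfoxide reductase, at 0.30 and 0.201, and Gstz1, a zeta-class transferase, at 0.30 and 0.238, all from the same test. Xdh averaged 51.2 CPM in DKO libraries and 79.9 CPM in Control libraries, without overlap.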

How the data were processed

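RNA was measured in 8 poly(A)-selected stranded libraries of whole mouse ovary, 4 DKO and 4 Control, grouped by the sample descriptions. The authors deposited raw counts per gene, which per the file headers came from Subread 1.5.2 (featureCounts) by summing reverse-stranded exon reads over gene IDs of the RefSeq annotation of GRCm38.p5. Multi-mapping reads were given no option of their own in that command. The submitters' processing notes also list STAR 2.4.2a, Trimmomatic 0.33 and 0.36, bcl2fastq 2.17.1.14, edgeR 3.12.0 and build GRCm38.p3, with no role. Gene names and biotypes came from a RefSeq table of GRCm38.p6, which matched 40290 of 41591 IDs, and 7 pseudogenes whose symbols fit the name rule were left out.

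Analyses used R 4.3.3 and edgeR 4.0.16: genes kept by filterByExpr, TMM factors (0.943 to 1.06), robust quasi-likelihood F-test without covariates, two-sided, Benjamini-Hochberg adjustment over all 16870 genes, threshold 0.05. Dispersion corresponded to a biological coefficient of variation of 0.281. SE values are the log2 fold change over the root of F, and 95% intervals assume normal error. CPM carry the TMM factors. Library pairs within a group differed beyond counting noise (chi-square per degree of freedom 25.05 to 143), and all 8 count as replicates. Shared sequence was counted in 50-base stretches of GENCODE M21 transcripts.

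The fit was tested on simulated data. Alternatives were other scalings and filters, DESeq2 1.42.0, limma 3.58.1 (voom), a replicate block, a block or restriction by title number (Control 1, DKO 1 and DKO 2 apart from the rest), and leaving out each library; leaving out both libraries with oviduct markers was chosen after seeing the data. The members and lists were chosen with earlier results of these data known. Named genes are called members, the 10 with the smallest p, the 3 highest and 3 lowest fold changes, the most abundant of each family, a fixed set of well-known enzymes, and from the related lists every called gene and that with the smallest p in each. Other genes were chosen after their values were seen.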

Additional observations from a re-analysis of the deposited data

Results flagged for a closer look

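Each of the 88 sets of 4 libraries, DKO and Control for the 44 tested members, was searched for a library far from the other 3 of its group, and 6 values stood apart. Chance gives about 1 in 20 such sets. For Mgst2, the microsomal transferase with the highest fold change, Control 3 had 13.1 CPM while the next Control library had 5.20 CPM. For Prdx4, the peroxiredoxin of the endoplasmic reticulum, Control 3 had 94.5 CPM and the next Control library 72.3 CPM. For Gstt3, a theta-class transferase, Control 1, the Control library with oviduct markers, had 6.34 CPM and the next Control library 3.00 CPM. For Gstt1, another theta-class gene, DKO 2, the DKO library with oviduct markers, had 15.1 CPM, under the 19.8 CPM of the nearest DKO library. For Gstt1, Control 2 had 18.3 CPM, above the 16.6 CPM of the nearest Control library. For Cat, DKO 1 had 157.56 CPM, beside 154.47 CPM in the nearest DKO library, a small gap in a very narrow set.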

How the results depend on the processing

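Gclc and Sod3 kept their direction in all 20 alternative fits, Gclc at -0.64 to -0.82 and Sod3 at 0.70 to 0.86 on the log2 scale, and each was called in 3 of the 8 fits that left out a single library. Over all genes, 212 were called in the main test, 1083 by DESeq2, 1651 by limma-voom with quality weights, 526 with the title run as a block and 97 without the libraries that hold oviduct markers, and 2 (without Control 2) to 506 (without Control 3) with single libraries left out. Members called higher numbered 2 with library size only, with a stricter filter and with limma-voom, 4 by DESeq2, 7 with quality weights, 5 with the title run as a block, 3 in the 5 libraries with the highest title numbers, and 0 to 4 with single libraries left out. Members called lower numbered 2 with the title run as a block, 0 in the 5 libraries with the highest title numbers and without the oviduct-marked libraries, and 0 to 1 with single libraries left out. Related genes called numbered 2 with no filter, 13 by DESeq2, 22 with quality weights, 5 with the title run as a block, 2 in the 5 libraries with the highest title numbers, 0 without the oviduct-marked libraries, and 0 to 5 with single libraries left out. The median member log2 fold change ran from -0.0778 to 0.0564 with single libraries left out, above 0 without Control 3 (0.0564) or DKO 2 (0.01). No called value changed sign. Of 878 alternative values of single members, 31 changed sign, in 12 uncalled members. The causes were not tested.

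The replicate numbers did not pair the libraries: same-numbered deviations correlated at 0.188, -0.389, 0.352 and 0.569. With the number as a replicate block, 743 genes were called, with 5 members higher, 1 lower and 5 related genes. DKO 2 correlated best with Control 1, not with its own number. With 4 libraries a group, a missed threshold does not show equal levels, and counts of genes under about 1 CPM, such as Gpx6 and Gsto2, carry wide errors.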

Other observations

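Rows annotated on several contigs held few counts more often than other rows, which touches Gstp1, Gstp2, Gstp3 and Txnrd2. Among protein-coding rows on several contigs, 458 of 1009 (45.4%) had at most 3 counts over all 8 libraries together, and among those on 1 contig 3898 of 20648 (18.9%) did. Whether the contigs set the low counts of these 4 genes was not tested. Pgr, the gene whose promoter drives Cre, averaged 1.61 ± 0.537 CPM in DKO libraries and 4.86 ± 1.75 CPM in Control libraries (SD, n = 4 each), without overlap. Its log2 fold change was -1.59 ± 0.36 with an adjusted p of 0.0665 in edgeR's quasi-likelihood test.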
